A study of Mus musculus with 8 samples.

Results

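The genes described here carry out DNA replication in S phase. They were 44 genes chosen by symbol for their role, with earlier results of these data known. They comprised factors that license origins, the replicative helicase, clamp and polymerases, enzymes that supply nucleotides, and a few controllers of S phase entry. All 44 were found among the 21692 genes counted. They were followed in forelimb buds of CD1 mouse embryos taken on gestation day 13 and kept in culture for 24 h. The medium held either the vehicle dimethyl sulfoxide or a mixture of organophosphate esters (OPE) modelled on Canadian house dust, at a dilution of 1 in 300000. Organophosphate esters are flame retardants and plasticisers that leave products and collect in dust. The question behind the comparison, as the series title states it, is what such a mixture does to cartilage that is on its way to bone.

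Each group had 4 libraries of poly-A RNA from cultured buds, named vehicle 1 to 4 and OPE 1 to 4, and strain, age and culture time were the same in both. Whether the libraries stand for different litters is not stated in the labels. The p-values below therefore describe variation among these 8 libraries, which may be partly technical. A bud is a mixture of cell types, and in bulk RNA fewer cycling cells cannot be told apart from less replication RNA in each cell.

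Before a cell enters S phase, the origin recognition complex, Cdc6 and Cdt1 load rings of Mcm2 to Mcm7 onto DNA. Kinases then recruit Cdc45 and GINS, and the ring becomes the helicase that opens the fork. Most of these genes are transcribed late in G1 phase under E2F transcription factors, so their RNA marks tissue with many dividing cells, as the growing limb bud is.

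Promoter windows were searched for short words that E2F factors are known to bind. RefSeq promoter windows (GRCm38.p6, from 250 bases before to 50 bases after the start) were matched by symbol for 36 of the 44 genes, in 42 windows. Mcm4, Gins1, Gins2, Gins4, Rfc2, Prim2, Pole and Ccne2 had no entry. For Cdc6, Dut, E2f1 and Mcm7 every window lay inside the deposited gene and not upstream of it. At least 1 window of Lig1 and of Uhrf1 also lay inside. All these windows were kept in the counts. Searched on both strands, an E2F word (TTTCCCGC, TTTCGCGC, TTTGCCGC or TTTGGCGC) was present in at least 1 window of 13 of the 36 genes (36.1%). The same words were present in 4.47% of the 11070 tested genes with a window, and in 1 of 18 mitosis genes (5.56%). The CCAAT word was present in 55.6% of the replication genes and in 42.1% of the tested genes. The word TTTGAA, the core of an element of mitosis promoters, was present in 16.7% of the replication genes, in 13.9% of the tested genes and in 72.2% of the mitosis genes. A match is a stretch of letters and not a shown binding site. The stretches below run from -200 to -81 relative to the start and show the pattern at 3 genes with E2F words and at Rrm2, the gene of smallest p, which has none in its window. Capitals mark E2F words.

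Mcm5 (chr8:75109309-75109428, plus strand): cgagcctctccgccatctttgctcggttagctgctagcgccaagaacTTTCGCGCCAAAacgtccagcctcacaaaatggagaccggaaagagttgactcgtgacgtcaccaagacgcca
Mcm6 (chr1:128359786-128359905, minus strand): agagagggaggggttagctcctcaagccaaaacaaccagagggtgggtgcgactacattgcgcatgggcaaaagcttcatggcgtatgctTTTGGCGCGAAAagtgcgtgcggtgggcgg
Pola1 (chrX:93632236-93632355, minus strand): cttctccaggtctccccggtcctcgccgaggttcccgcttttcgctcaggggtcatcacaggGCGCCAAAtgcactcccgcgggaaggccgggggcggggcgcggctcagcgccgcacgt
Rrm2 (chr12:24708054-24708173, plus strand): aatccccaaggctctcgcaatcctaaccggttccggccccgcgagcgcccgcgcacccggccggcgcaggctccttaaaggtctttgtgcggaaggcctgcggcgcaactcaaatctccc

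In Mcm5 and Mcm6 the capitals are 2 words on opposite strands that overlap, starting at -153 and -149 in Mcm5 and at -110 and -106 in Mcm6. In Pola1 the single word begins at -138.

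Libraries differed in ways that touch these genes. Reads counted to genes ranged from 17549560 to 22006738 in the vehicle libraries. They numbered 21806141, 15063166, 15520091 and 14986793 in OPE 1 to 4, so OPE 2, 3 and 4 were the shallowest libraries. On principal components of log2 CPM (counts scaled per 1e6 reads, with TMM factors), OPE 3 stood apart on the main axis and OPE 1 on the next. In OPE 3 short genes were high and long genes low (slope of -0.214 on the log2 scale for each doubling of gene length, against -0.031 to 0.099 in the other 7 libraries), and ribosomal protein genes took 8.23% of its counts against 4.11% to 5.28% in the others. Between groups, read total, slope and ribosomal share gave exact two-sided permutation p of 0.2, 0.657 and 0.0571 (adjusted p = 0.4, 0.657 and 0.229 over 4 library properties). The smallest p that 4 against 4 libraries allow is 0.0286, or 0.114 after adjustment for a single property that differs, so this test could not show that the groups are alike. The limb markers Tbx5 and Prrx1 were at 284 ± 11.1 and 459 ± 31.3 CPM with vehicle (SD, n = 4 libraries) and differed by 0.12 and -0.17 on the log2 scale between groups (edgeR adjusted p = 0.601 and 0.51). Macrophage markers were the cell type list that moved most, with 6 of 7 lower past the threshold, a summed level of 104 to 124 CPM in the vehicle libraries and 41, 42.9, 27.3 and 13.2 CPM in OPE 4, 3, 2 and 1. Endothelial markers summed to 223 to 275 CPM with vehicle and 107 to 206 CPM with OPE, lowest in OPE 1, and none of 6 passed. Of these 6, 5 were below 0 and Emcn went the other way (log2 fold change 0.34, edgeR adjusted p = 0.417). The part of these cells in the values below was not tested.

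Replication genes lay below their vehicle level in nearly every case, with log2 fold changes from -0.77 to 0.08. Of 43 genes with enough reads to be tested, 41 had a log2 fold change below 0, as did 47.2% of all 15517 genes tested, and the median was -0.34 against 0.01 for all genes tested. None passed the threshold, a Benjamini-Hochberg adjusted p of 0.05 over all genes tested in edgeR's quasi-likelihood test; 0.477% of all genes tested did, 0.438% as lower. The smallest adjusted p of the 43 was 0.104 (Rrm2). At an unadjusted p under 0.05, 26 of the 43 were lower and none was higher, beside 7.31% lower and 5.85% higher among all genes tested. In 23 of the 43 all 4 OPE values lay below all 4 vehicle values, as they did in 5.44% of all genes tested, and in none did all lie above (4.05%). With DESeq2 on the same counts 8 genes passed, all lower, where 2.31% of all genes tested passed as lower. Of the 44 genes, 7 had an adjusted p under 0.05 in the authors' deposited table, all lower, beside 1.8% of the 17759 genes given an adjusted p there. Those 7 were Rrm2, Ccne2, Uhrf1, Mcm5, Chaf1a, Pole and Mcm10, with adjusted p from 0.0124 to 0.0446 in the authors' deposited table.

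**Figure D1:**
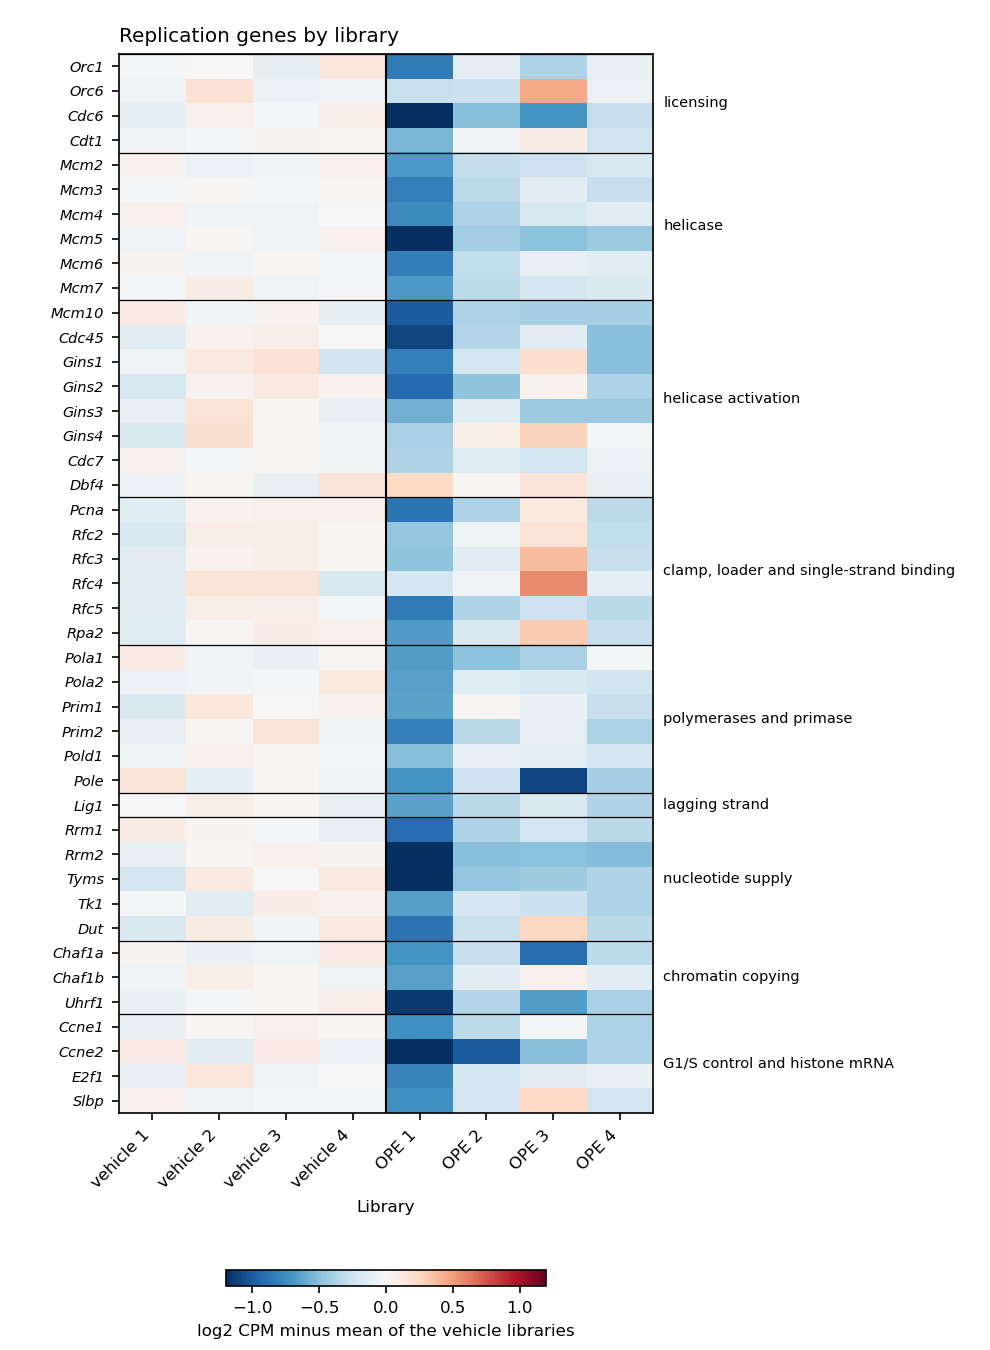
Level of each of 43 replication genes (rows, grouped by role) in each of the 8 libraries (columns), as log2 CPM minus the mean of the 4 vehicle libraries; blue is lower, red is higher, and values past the ends of the scale take the end colour. OPE 1 is the lowest of the OPE libraries in 40 of the 43 genes, and OPE 3 is the highest of all 8 libraries in 11.

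The vehicle libraries agreed closely and the OPE libraries did not. The median coefficient of variation of the 43 genes was 6.21% over the vehicle libraries and 20.5% over the OPE libraries. It was 7.89% and 14.7% for the 11764 tested genes of at least 5 CPM. Without OPE 1 the value for the replication genes over the OPE libraries was 10.6%, and 14.5% for the 11764 genes. Relative to the vehicle mean, the median of the 43 genes was -0.74, -0.28, -0.14 and -0.28 on the log2 scale in OPE 1 to 4. The vehicle libraries lay at -0.06 to 0.02. All 44 genes together took 0.13% of the counts in OPE 1, 0.183% to 0.187% in OPE 2 to 4 and 0.218% to 0.229% in the vehicle libraries. The groups thus did not overlap in this share of raw counts, and OPE 1 lay farthest from the vehicle libraries. With TMM factors the sum was 1310, 1830, 2010 and 1850 CPM in OPE 1 to 4 and 2160 to 2250 CPM with vehicle. On that scale OPE 3 lay nearest to the vehicle libraries.

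The lower level was not limited to OPE 1. Without OPE 1 the median log2 fold change was -0.23, 38 of 43 genes were below 0, 20 were lower at an unadjusted p under 0.05 beside 6.02% of all genes tested, and 1 passed the adjusted threshold (Rrm2, adjusted p = 0.045 in edgeR), which 0.275% of all genes tested passed as lower. OPE 2, 3 and 4 alone lay below all vehicle libraries in 23 genes, as in 6.41% of all genes tested. Without OPE 3 the median was -0.40, 43 of the 44 genes then tested were below 0 and 3 passed (Lig1, Ccne1 and Ccne2, adjusted p = 0.0312, 0.0456 and 0.0372 in edgeR), beside 1.43% of all genes tested.

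**Figure D2:**
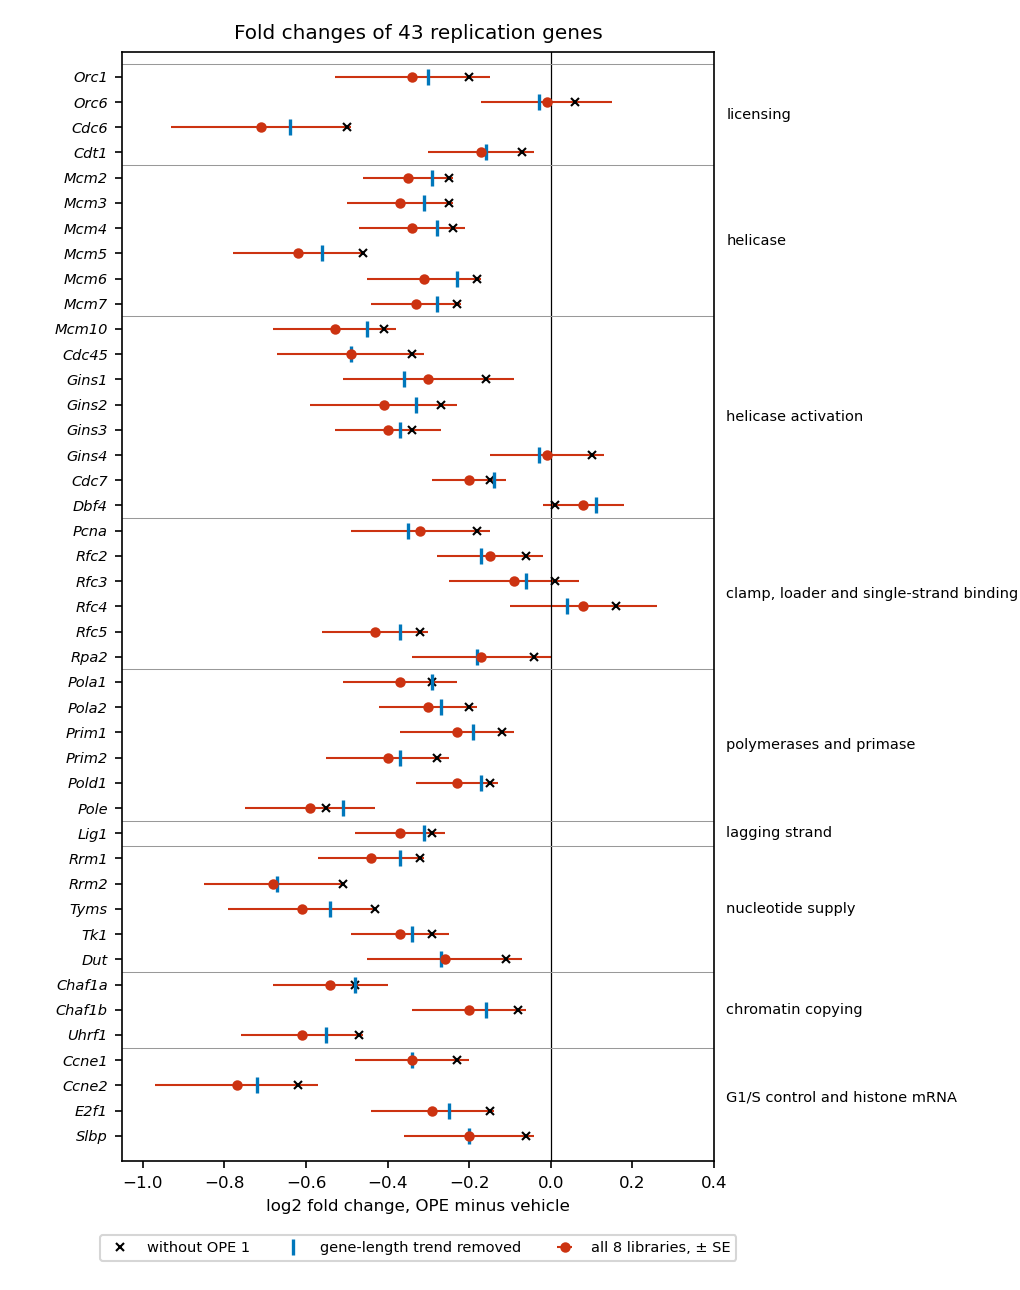
Log2 fold change (OPE minus vehicle) of 43 replication genes by role; circles with bars are edgeR estimates ± SE from 4 against 4 libraries, crosses leave out OPE 1, and blue ticks remove the gene-length trend of each library. Circles lie between -0.77 (Ccne2) and 0.08 (Dbf4 and Rfc4), and the crosses lie closer to 0 in most genes.

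The enzymes that supply nucleotides were lower in all 5 genes, with a median of -0.44, beside 47.2% of all genes tested below 0. Rrm2 encodes the small subunit of ribonucleotide reductase, which makes deoxynucleotides and is built up only in S phase. Its CPM values were 61.7, 66, 68.2 and 67 in vehicle 1 to 4 and 25.6, 46.4, 46.9 and 45.8 in OPE 1 to 4. All 4 OPE values lay below all vehicle values, with OPE 2, 3 and 4 close together and OPE 1 far below them. The log2 fold change was -0.68 ± 0.17 (SE; adjusted p = 0.104). It passed in 4 of 19 alternative settings, namely DESeq2, the fit with the gene-length trend removed (adjusted p = 0.041; 1.1% of all genes passed as lower), the fit without OPE 1, and the fit without OPE 1 and OPE 3 (0.388%).

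Rrm1, the large subunit of the same enzyme, was at 109 ± 6.03 CPM with vehicle and 80.6 ± 15.6 CPM with OPE (mean ± SD, n = 4 each). Its values were 116, 112, 108 and 102 CPM in vehicle 1 to 4 and 57.9, 84.2, 93.2 and 87.2 CPM in OPE 1 to 4, with no overlap. The log2 fold change was -0.44 ± 0.13 (adjusted p = 0.182). On the FPKM scale, which divides by gene length, the ratio of Rrm1 to Rrm2 was 0.834 to 1.03 in the vehicle libraries and 1.24, 0.996, 1.09 and 1.05 in OPE 1 to 4, so the ranges overlapped through OPE 2 alone.

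Tyms, thymidylate synthase, was at 41.8, 52.3, 48.5 and 52.4 CPM in vehicle 1 to 4 and at 19.4, 35.3, 36.1 and 37.7 CPM in OPE 1 to 4, again without overlap (log2 fold change -0.61 ± 0.18, adjusted p = 0.182). Tk1, the thymidine kinase of cycling cells, gave -0.37 ± 0.12 (adjusted p = 0.194) with no overlap. Dut, which removes dUTP, gave -0.26 ± 0.19 (adjusted p = 0.617). Dut stood at 51 CPM in OPE 3, above every vehicle library, and at 23.1 to 35.5 CPM in the other OPE libraries, below every one.

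**Figure D3:**
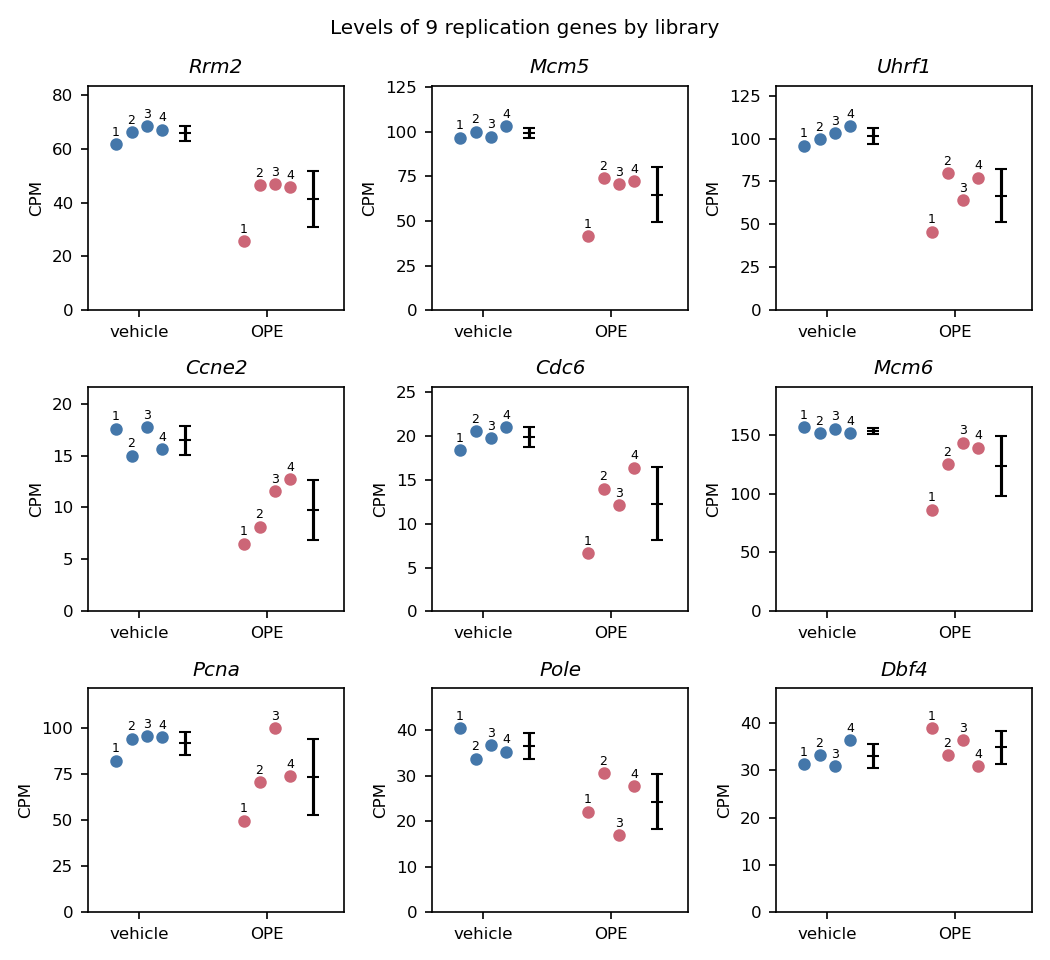
CPM (TMM-scaled, axis from 0) of 9 replication genes in each library, with the replicate number above each point and the mean ± SD of 4 libraries as a black bar. Rrm2, Mcm5, Uhrf1, Ccne2, Cdc6, Mcm6 and Pole have no overlap between groups, and Pcna overlaps through OPE 3. Dbf4 has OPE values above, within and below the vehicle range.

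The 6 genes of the helicase ring were lower together. In each of Mcm2 to Mcm7 all 4 OPE values lay below all vehicle values and the unadjusted p was under 0.05, with log2 fold changes from -0.62 to -0.31. Of all genes tested, 5.44% had no overlap with OPE lower and 7.31% were lower at that p. None of the 6 passed the adjusted threshold. Summed over the ring, FPKM was 203 to 210 in the vehicle libraries and 115, 163, 163 and 176 in OPE 1 to 4. The vehicle libraries differed little, and OPE 1 was the lowest by far.

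Mcm5 had the largest difference of the 6. Its CPM values were 96.8, 100, 97.3 and 103 in vehicle 1 to 4 and 41.6, 74.2, 70.7 and 72.5 in OPE 1 to 4, a log2 fold change of -0.62 ± 0.16 (adjusted p = 0.116). It passed with DESeq2 (adjusted p = 0.0179) and in the edgeR fit without OPE 1 and OPE 3. Its share of the summed FPKM of the ring was 13.8% to 14.6% in the vehicle libraries and 10.5%, 13.4%, 11.8% and 12% in OPE 1 to 4, with no overlap. Mcm7 kept the largest share in every library, 24.3% to 27%, and Mcm6 the next, 16.8% to 18.7%.

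Mcm6 was the most even gene of the ring with vehicle after Mcm3. It stood at 156, 151, 155 and 151 CPM in vehicle 1 to 4 and at 86.3, 125, 143 and 139 CPM in OPE 1 to 4 (log2 fold change -0.31 ± 0.14, adjusted p = 0.367). Mcm3 was at 95.7, 97, 96 and 97.8 CPM with vehicle, a coefficient of variation of 1.01%, and at 54.9, 77.9, 87.7 and 79.5 CPM in OPE 1 to 4 (-0.37 ± 0.13, adjusted p = 0.24). In both genes every OPE library lay below a narrow vehicle range, OPE 3 nearest to it and OPE 1 farthest.

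Mcm2 was at 108, 100, 102 and 109 CPM in vehicle 1 to 4 and at 64.9, 85.5, 87.8 and 91.7 CPM in OPE 1 to 4 (-0.35 ± 0.11, adjusted p = 0.201). Mcm4 was at 112, 105, 104 and 108 CPM in vehicle 1 to 4 and at 63.4, 83, 94.3 and 97.9 CPM in OPE 1 to 4 (-0.34 ± 0.13, adjusted p = 0.266). Mcm7 was at 147, 159, 145 and 148 CPM in vehicle 1 to 4 and at 92.9, 121, 131 and 134 CPM in OPE 1 to 4 (-0.33 ± 0.11, adjusted p = 0.245). These 3 genes shared 1 order of the OPE libraries, from OPE 1 as the lowest to OPE 4 as the highest.

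Of the 4 licensing genes, Cdc6 alone had no overlap between groups, beside 5.44% of all genes tested with OPE lower. Cdc6 is the ATPase that joins the origin recognition complex to load the ring. It was at 18.4, 20.6, 19.8 and 21 CPM in vehicle 1 to 4 and at 6.65, 14, 12.1 and 16.4 CPM in OPE 1 to 4 (log2 fold change -0.71 ± 0.22, adjusted p = 0.194). Cdt1, which brings the ring to the origin, gave -0.17 ± 0.13 (adjusted p = 0.628). Orc1, the subunit of the recognition complex that varies over the cell cycle in mammals, was among the 3 lowest genes of all, at 1.92 ± 0.149 FPKM with vehicle and 1.47 ± 0.357 FPKM with OPE. Its CPM values were 5.64, 5.66, 5.2 and 6.21 in vehicle 1 to 4 and 3.09, 5.23, 4.37 and 5.33 in OPE 1 to 4, so OPE 2 and 4 lay inside the vehicle range (-0.34 ± 0.19, adjusted p = 0.489). Orc6, the smallest subunit of that complex, gave -0.01 ± 0.16 (adjusted p = 0.984), and its sign turned in 3 of the fits that left out a library.

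Genes that turn the loaded ring into a moving helicase were mixed. Of 8 genes 7 were below 0 and 4 had no overlap (Mcm10, Cdc45, Gins3 and Cdc7). Of all genes tested, 47.2% were below 0 and 5.44% had no overlap with OPE lower. Mcm10, which helps to activate the helicase and to bring in polymerase alpha, was at 17.6, 16, 16.8 and 15.1 CPM in vehicle 1 to 4 and at 8.12, 12.6, 12.3 and 12.3 CPM in OPE 1 to 4. OPE 2, 3 and 4 were nearly equal and OPE 1 lower (-0.53 ± 0.15, adjusted p = 0.158; 0.0366 with DESeq2). Cdc45 gave -0.49 ± 0.18 (adjusted p = 0.262). The 4 GINS genes, whose products sit on the ring with Cdc45, ran from Gins2 at -0.41 ± 0.18 and Gins3 at -0.40 ± 0.13 through Gins1 at -0.30 ± 0.21 to Gins4 at -0.01 ± 0.14, with adjusted p from 0.214 to 0.994.

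Cdc7 and Dbf4 encode the catalytic and the regulatory subunit of 1 kinase that starts origins. Cdc7 was at 39.9 to 42.3 CPM with vehicle and at 31.7, 36.9, 34.8 and 39 CPM in OPE 1 to 4 (-0.20 ± 0.09, adjusted p = 0.39). Dbf4 was at 31.3, 33.2, 30.9 and 36.4 CPM in vehicle 1 to 4 and at 38.8, 33.2, 36.4 and 30.8 CPM in OPE 1 to 4 (0.08 ± 0.10, adjusted p = 0.822). Dbf4 was the only one of the 43 genes with a higher level in OPE 1 than in every vehicle library. Its sign turned without OPE 1 and OPE 3 (-0.04).

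The sliding clamp Pcna had the highest level per length of the 44 genes, at 61.6 ± 4.53 FPKM with vehicle and 47.4 ± 11.7 FPKM with OPE. Its CPM values were 82.5, 94.4, 95.8 and 95.2 in vehicle 1 to 4 and 49.8, 70.9, 100 and 73.9 in OPE 1 to 4. OPE 3 was the highest of all 8 libraries and the other OPE libraries lay below the vehicle range (-0.32 ± 0.17, adjusted p = 0.463). The gene is short, at 1518 bases in the deposited length column, and without OPE 3 the log2 fold change was -0.51 (adjusted p = 0.0575). With all 8 libraries and the length trend of each library removed it was -0.35 (adjusted p = 0.134).

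The loader of the clamp, replication factor C, did not move as 1 unit. Rfc5 was at 29.7, 34.6, 34.6 and 32.5 CPM in vehicle 1 to 4 and at 18.1, 25.6, 27.6 and 26.2 CPM in OPE 1 to 4, with no overlap (-0.43 ± 0.13, adjusted p = 0.189). Rfc2 was at 56.2, 67, 67 and 64.5 CPM in vehicle 1 to 4 and at 46.1, 61.3, 71 and 51.7 CPM in OPE 1 to 4 (-0.15 ± 0.13, adjusted p = 0.708). Rfc2 thus spanned the vehicle range, with OPE 3 above it and OPE 1 and OPE 4 below.

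Rfc3 gave -0.09 ± 0.16 (adjusted p = 0.871). Rfc4 was at 14.4, 17.6, 17.5 and 13.9 CPM in vehicle 1 to 4 and at 13.7, 15.3, 23.5 and 14.7 CPM in OPE 1 to 4 (0.08 ± 0.18, adjusted p = 0.909). The value above 0 came with the high level of OPE 3, without which the log2 fold change was -0.13 (adjusted p = 0.644). Rpa2, a subunit of the protein that coats single-stranded DNA, gave -0.17 ± 0.17 (adjusted p = 0.754), with OPE 3 above and the other OPE libraries below all vehicle libraries. Rfc4 shares 12.7% of its exonic bases with Eif4a2 on the other strand, a gene with many more reads, and no source used here tells whether reads were counted by strand. Orc1, Rfc2, Rfc5 and Gins2 likewise share 10.8%, 15.1%, 10.7% and 67.3% of their exonic bases with a gene on the other strand. Mcm7 shares 12.6% with 4 genes in all, of which the microRNA genes Mir25 and Mir93, 3.89% together, lie on its own strand.

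Of the polymerases, Pole stood out with a fold change of -0.59 ± 0.16 (adjusted p = 0.148). Pole encodes the catalytic subunit of polymerase epsilon, which copies the leading strand. It was at 40.4, 33.8, 36.8 and 35.3 CPM in vehicle 1 to 4 and at 22.1, 30.6, 17 and 27.7 CPM in OPE 1 to 4. Here OPE 3 and not OPE 1 was the lowest library, and Pole has the longest gene model of the 44 at 7163 bases. With the length trend of each library removed the value was -0.51 (adjusted p = 0.0514).

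Pold1, the catalytic subunit of polymerase delta on the lagging strand, gave -0.23 ± 0.10 (adjusted p = 0.377) without overlap. Pola1 and Pola2, the catalytic and second subunits of polymerase alpha, gave -0.37 ± 0.14 and -0.30 ± 0.12, and Prim1 and Prim2, the primase that works with them, gave -0.23 ± 0.14 and -0.40 ± 0.15. Adjusted p of these 4 genes lay between 0.272 and 0.516. Lig1, the ligase that seals the lagging strand, was at 77.3, 81.9, 78 and 73.4 CPM in vehicle 1 to 4 and at 49.6, 62.3, 69 and 60.3 CPM in OPE 1 to 4, with no overlap (-0.37 ± 0.11, adjusted p = 0.161). Lig1 passed with DESeq2 (adjusted p = 0.0459) and without OPE 3.

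Fen1, the flap nuclease of the lagging strand, was the 1 gene too low to test. Its CPM values were 0.169, 0.51, 0.515 and 0.355 in vehicle 1 to 4 and 0.231, 0.529, 0.208 and 0.2 in OPE 1 to 4, with full overlap. It had 3 to 11 reads per library, in all 32 with vehicle and 19 with OPE, a ratio of 0.703 after scaling for depth (exact 95% binomial interval 0.377 to 1.28, counting error only), so these reads cannot show a difference. Its level was 0.166 ± 0.0702 FPKM with vehicle, below Orc1 as the next lowest gene. In GENCODE M21, 78.8% of its exonic bases lie under Gm10143 and 5.37% under Tmem258, both on the other strand. Its value is uncertain to that extent.

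Genes that restore chromatin behind the fork were lower in 3 of 3, beside 47.2% of all genes tested. Uhrf1, which reads hemimethylated DNA and calls in the maintenance methyltransferase, was at 95.9, 99.8, 103 and 107 CPM in vehicle 1 to 4 and at 45.8, 79.7, 64 and 77.2 CPM in OPE 1 to 4 (-0.61 ± 0.15, adjusted p = 0.107; 0.0148 with DESeq2). Chaf1a, the large subunit of the chaperone that lays histones on new DNA, was at 38.6, 35.7, 36.3 and 40.6 CPM in vehicle 1 to 4 and at 22.8, 31.1, 20 and 30.4 CPM in OPE 1 to 4 (-0.54 ± 0.14, adjusted p = 0.133). Neither gene overlapped between groups, and OPE 1 and OPE 3 were the lowest libraries in both. Chaf1b, the middle subunit of that chaperone, gave -0.20 ± 0.14 (adjusted p = 0.60). Chaf1a shares 52.5% of its exonic bases with Ubxn6 on the other strand.

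Cyclin E binds the kinase that takes cells into S phase. Ccne2 had the largest difference of all 43 genes, with 17.6, 15, 17.7 and 15.6 CPM in vehicle 1 to 4 and 6.51, 8.14, 11.6 and 12.7 CPM in OPE 1 to 4 (-0.77 ± 0.20, adjusted p = 0.114; 0.0113 with DESeq2). The OPE values all lay below the vehicle values, with OPE 1 and OPE 2 lower than OPE 3 and OPE 4. Ccne1 gave -0.34 ± 0.14 (adjusted p = 0.316), with OPE 3 alone inside the vehicle range. E2f1, the activator of this gene set, gave -0.29 ± 0.15 (adjusted p = 0.447). Slbp, which binds the stem-loop of histone messages, gave -0.20 ± 0.16 (adjusted p = 0.676). Ccne2 shares 17.4% of its exonic bases with Ints8 on the other strand.

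**Figure D4:**
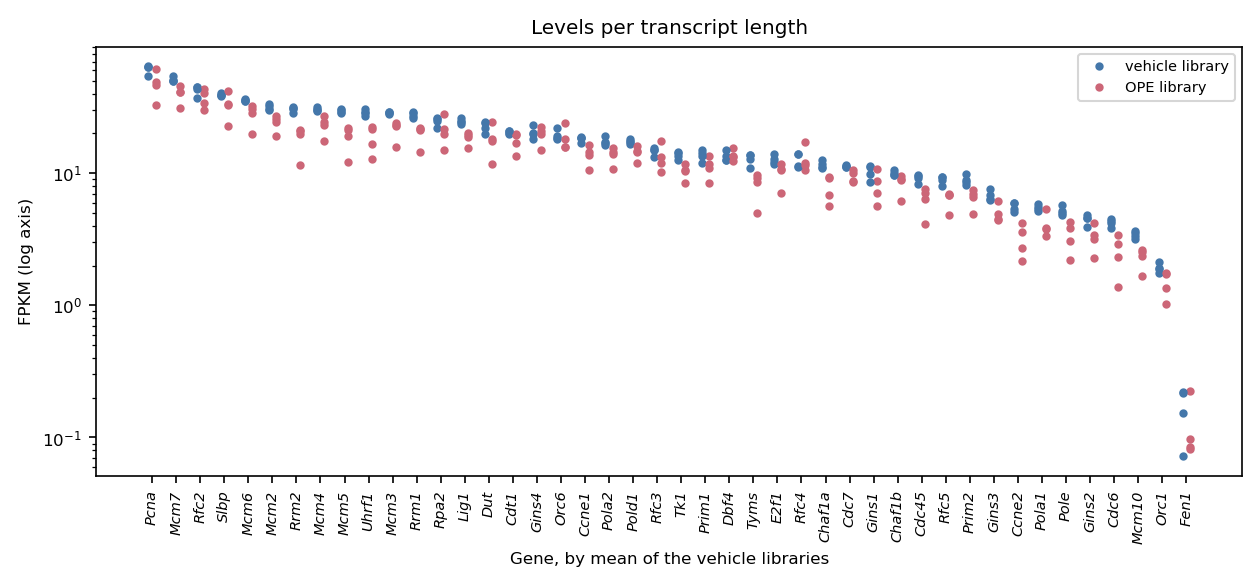
Deposited FPKM (log axis) of the 44 genes in each vehicle and OPE library, ordered by the mean of the vehicle libraries. Pcna and Mcm7 lead at 61.6 and 51.4 FPKM, Orc1 and Fen1 close the order at 1.92 and 0.166 FPKM.

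Levels per length spanned a wide range. Pcna, Mcm7, Rfc2 and Slbp led with vehicle at 61.6 ± 4.53, 51.4 ± 2.33, 42.7 ± 3.61 and 39.1 ± 0.995 FPKM, where Rfc2 and Slbp overlapped and the others did not. Rfc2 was at 37.1 ± 6.02 FPKM with OPE and Mcm7 at 39.6 ± 6.01 FPKM. From Mcm2 at 31.6 FPKM down to Pold1 at 17.3 FPKM, each gene overlapped the next in the order over the 4 vehicle libraries. The other members of the ring lay at 28.6 to 35.8 FPKM with vehicle. The 8 helicase activation genes ran from Mcm10 at 3.42 ± 0.201 and Gins2 at 4.47 ± 0.402 FPKM up to Gins4 at 20.3 ± 2.11 FPKM.

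Gene length separated the genes within OPE 3. Across the 43 genes the Spearman correlation of the log2 ratio to the vehicle mean with gene length was -0.66 in OPE 3, -0.35 in OPE 1, -0.47 in OPE 2 and 0.01 in OPE 4. It was 0.43, -0.39, -0.29 and 0.03 in vehicle 1 to 4, so values of the size of those in OPE 1 and OPE 2 occurred with vehicle too. Over all genes tested it was -0.49 in OPE 3, and genes of 1 library are not independent. The 9 genes shorter than 2000 bases had a median of 0.25 in OPE 3, and the 34 longer ones -0.21. In OPE 1 the medians were -0.68 and -0.75, and in OPE 4 -0.28 and -0.30. Of the 11 genes with 3 of 4 OPE libraries below all vehicle libraries, the exception was OPE 3 in 9. With a spline trend of length removed from each library, the median of the 43 genes was -0.69, -0.27, -0.10 and -0.23 in OPE 1 to 4. It stayed within -0.03 to 0.02 with vehicle, and 41 of the 43 log2 fold changes were still below 0.

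Among 74 further genes of replication and of the G1/S control, 56 were below 0 with a median of -0.13, and 1 passed, as lower (0.438% of all genes tested). This was Ccna2, cyclin A2, which works through S phase and G2; it fell from 55.7 ± 1.66 to 38.7 ± 4.31 CPM (log2 fold change -0.53 ± 0.10, adjusted p = 0.0453). The next by p were Timeless, of the fork protection complex (-0.49 ± 0.11, adjusted p = 0.0702), Chtf18, of an alternative clamp loader (-0.60 ± 0.14, adjusted p = 0.0877), and Clspn, which links the fork to the checkpoint (-0.72 ± 0.19, adjusted p = 0.138). Orc4, a subunit of the recognition complex, went the other way without overlap, from 41.8 ± 1.83 to 52.5 ± 4.26 CPM (0.33 ± 0.09, adjusted p = 0.141). Wdhd1, which ties polymerase alpha to the helicase, gave -0.57 ± 0.16 (adjusted p = 0.147). At an unadjusted p under 0.05, 20 of the 74 were lower and 1 was higher, beside 7.31% and 5.85% of all genes tested.

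Genes of G2 and M phase gave a steadier picture over the OPE libraries. Each of 21 was below 0, beside 47.2% of all genes tested, and the median was -0.46. Bub1b, Hmmr and Top2a fell (edgeR adjusted p = 0.0388, 0.0389 and 0.0451), where 0.438% of all genes tested passed as lower. At an unadjusted p under 0.05, 18 of the 21 were lower (7.31% of all genes tested), beside 26 of the 43 replication genes. Without overlap and lower were 16 of the 21 (5.44%), beside 23 of the 43. By library the median of the 21 was -0.65, -0.41, -0.47 and -0.50 in OPE 1 to 4, beside -0.74, -0.28, -0.14 and -0.28 for the replication genes. OPE 1 was the lowest library for both lists, and the lists lay farthest apart in OPE 3. With the length trend removed, the mitosis median in OPE 1 to 4 was -0.65, -0.37, -0.27 and -0.43, and the lists then lay farthest apart in OPE 4. Of 9 housekeeping genes 6 were below 0 with a median of -0.02, and none passed. The difference between the lists was not tested.

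**Figure D5:**
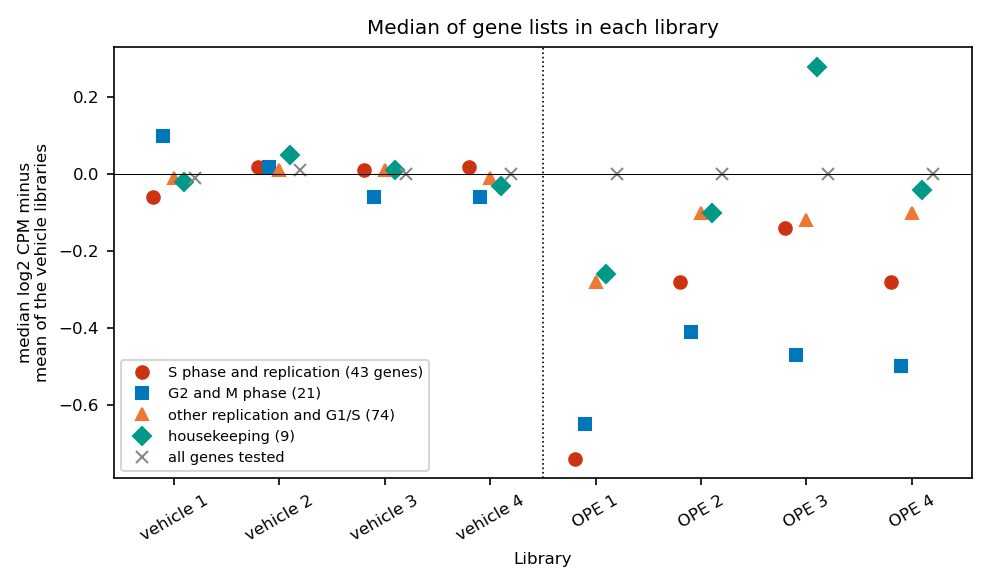
Median of each gene list in each library, as log2 CPM minus the mean of the 4 vehicle libraries. Replication genes reach -0.74 in OPE 1 and -0.14 in OPE 3, mitosis genes stay between -0.65 and -0.41 in all OPE libraries, and all genes tested stay within 0.01 of 0.

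The fold changes were also set beside the E2F words. The 13 genes with a word in a window had a median log2 fold change of -0.37, from -0.71 to -0.09. The 22 tested genes with a window and no word had a median of -0.31, from -0.68 to 0.08. The 2 ranges overlap almost wholly. Among the genes of smallest p, Uhrf1, Mcm5, Lig1 and Cdc6 had a word in a window. Rrm2, Chaf1a, Mcm10, Tyms, Rrm1 and Rfc5 had none, and Ccne2 and Pole had no window. The windows of E2f1 and Dut, counted as without a word, lay inside the gene. Those of Cdc6 and Mcm7, counted as with a word, did so too. For Uhrf1 and Lig1 the window that held the word also lay inside the gene, and their other windows held none. Whether the words go with the fold changes was not tested.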

How the data were processed

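Poly-A RNA of cultured forelimb buds was sequenced in 8 libraries, 4 in each group, assigned by their titles in the labels. STAR 2.5, HTSeq 0.6.1, CASAVA 1.8, DESeq2 (version given as 2) and the build mm10 appear in the submitters' processing notes, without roles. The annotation and the strand setting were not stated there. Per the file headers, the authors deposited raw read counts per gene and FPKM values. The authors also deposited signal values, which are the counts divided by 1 size factor per library, from 0.80311 to 1.2451. The deposited log2 fold change and p-value columns are the authors' own.

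Tests used the deposited counts and edgeR 4.0.16 under R 4.3.3 (TMM, filterByExpr, robust quasi-likelihood fit, legacy method, group as the only term, two-sided) over 15517 genes, with Benjamini-Hochberg adjustment at 0.05. SE is the log2 fold change divided by the root of F. CPM used TMM-scaled totals, and log2 CPM a prior count of 2. The steps were tested on simulated data. Every pair of libraries in a group differed by more than sampling noise (smallest ratio of chi-square to its degrees of freedom 4.8). Deposited gene IDs were matched to GENCODE M21 for exon overlap (21457 found). Library properties were compared over the 70 assignments of 8 libraries.

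The members and lists were chosen with earlier results of these data known. Values in every library are given for the 12 genes of smallest p, genes above 0, the 3 highest and 3 lowest by FPKM, and Mcm2 to Mcm7. Markers of 9 cell types and regions were listed; those not named in the report had no member past the threshold. Alternatives covered scaling, filters, DESeq2 1.42.0, limma-voom (limma 3.58.1), the quasi-likelihood method, the replicate block, gene-length offsets and left-out libraries. Intervals cover counting error only.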

Additional observations from a re-analysis of the deposited data

Results flagged for a closer look

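Of 88 gene-by-group sets of 4 libraries screened, 8 held a value far from the other 3 by Dixon's ratio of gap to range, and chance alone marks about 1 set in 20. In OPE 1 these were low values of Mcm5 (41.6 CPM, others 70.7 to 74.2), Mcm10 (8.12 CPM, others 12.3 to 12.6), Rrm2 (25.6 CPM, others 45.8 to 46.9) and Tyms (19.4 CPM, others 35.3 to 37.7). Rfc4 was high in OPE 3 (23.5 CPM, others 13.7 to 15.3). Fen1 stood at 0.529 CPM in OPE 2 (others 0.20 to 0.231), which rests on a few reads. In the vehicle group Pcna was low in vehicle 1 (82.5 CPM, others 94.4 to 95.8) and Orc6 high in vehicle 2 (35.4 CPM, others 29.9 to 30.7).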

How the results depend on the processing

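The median of the replication genes stayed between -0.40 and -0.23 and the number below 0 between 38 and 43 in all 19 alternative settings. Of the replication genes, 8 passed with DESeq2, 1 with gene-length offsets and 2 without OPE 1 and OPE 3, against 0 with the design as set; leaving out 1 library gave 0 to 3. The count over all genes was 74, and 131 with library totals, 136 with no filter, 536 with DESeq2, 112 with the newer quasi-likelihood method and 322 with gene-length offsets (171 lower, 151 higher); leaving out 1 library gave 7 to 308. Library totals moved the median of all genes to -0.04 and that of the replication genes to -0.40. With the replicate block 62 genes passed, 0 of them replication genes. Deviations of same-numbered libraries correlated at 0.31, 0.08, 0.01 and 0.09 for numbers 1 to 4. Vehicle 1 and 4 alone correlated best with their own number. The labels do not say whether the numbers pair the samples, and with 4 libraries in each group these values cannot decide it. Signs turned only in genes near 0: without OPE 1 and OPE 3 in Gins4 (0.02), Dbf4 (-0.04) and Rfc4 (-0.08), and on leaving out 1 library in Orc6 (-0.20 to 0.06), Gins4 (-0.11 to 0.10), Rfc3 (-0.30 to 0.01) and Rfc4 (-0.13 to 0.16). Orc6 was at 0.04 without vehicle 2, and at 0.06 without OPE 1 or OPE 2. The cause was not tested. Of the 44 genes, Fen1 alone had too few reads to pass the filter used.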
